A study of Rattus norvegicus with 6 samples.

Results

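Mitochondrial ribosomal proteins are the nuclear-encoded proteins of the mitoribosome. They were taken here as the genes whose symbol in the deposited count table is Mrpl or Mrps followed by a number and at most a letter from a to c. This rule found 75 of the 40456 genes in the table, 46 with a large-subunit symbol (Mrpl) and 29 with a small-subunit symbol (Mrps). It reads symbols only and uses no measured value. The counts came from 6 poly-A RNA sequencing libraries of H9c2, an established rat cardiomyoblast line. All cells carried the wild-type genotype and had been held for 5 days in differentiation medium with 1% serum and 1 µM retinoic acid. For the last 24 h the cells of 3 libraries received 25 nM of a negative control locked nucleic acid gapmer, and those of the other 3 received 25 nM of a gapmer against Tug1, a long non-coding RNA. Gapmers are antisense oligonucleotides through which RNase H cuts the paired RNA, and a single Tug1 gapmer sequence was used.

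The mitoribosome sits in the mitochondrial matrix and makes the few proteins that the mitochondrial genome still encodes, all of them membrane subunits of oxidative phosphorylation complexes. Its ribosomal RNAs are made inside the organelle, whereas every one of its proteins is made in the cytosol and imported, so the RNAs measured here are nuclear transcripts. The small subunit reads the messenger RNA, and the large subunit joins the amino acids and passes the new chain to the inner membrane. Heart and skeletal muscle depend heavily on this system, and inherited defects in several of the proteins cause cardiomyopathy.

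Total counts were 12978548 to 13544337 per library, so that 1 CPM (the count scaled to library size, with TMM factors) stood for 12.9 to 13.8 counts. Tug1 had 54.7, 52.0 and 55.4 CPM in the control libraries and 11.9, 11.2 and 12.5 CPM in the knockdown libraries (log2 fold change -2.19, SE 0.0786, edgeR adjusted p 4.39e-16), so the targeted RNA followed the labels. The labels call the cells cardiomyocytes. Of 10 cardiomyocyte markers, Myh6, Myh7, Tnni3, Nppa, Ryr2 and Myl7 were near 0 in all libraries and failed the filter on low counts. The summed cardiomyocyte markers ran from 510 to 558 CPM in controls and from 679 to 712 CPM after knockdown, nearly all from Tnnt2 and Ttn, which are not unique to the heart. The 8 skeletal myoblast markers summed to 793 to 800 CPM and 1210 to 1290 CPM, the 7 fibroblast markers to 43500 to 44900 CPM and 40900 to 43700 CPM, and the 6 endothelial and blood cell markers to 3.37 to 5.42 CPM and 6.60 to 8.88 CPM, with Ptprc at 0. All 4 tested cardiomyocyte markers were called higher: Tnnt2 (log2 fold change 0.24), Ttn (0.64), Actc1 (0.97) and Myl2 (1.23, with group means of 0.539 and 1.28 CPM). Of 7 tested myoblast markers 6 were called higher and Myod1 lower (log2 fold change -0.32). Of 6 tested fibroblast markers 2 were called higher and 3 lower. Cd68, called higher, was the only tested endothelial or blood cell marker (3.60 and 7.65 CPM in the group means). Over all tested genes 30.8% were called higher and 30.9% lower. The part of these cell type markers in the differences of the ribosomal protein genes was not tested, and in bulk RNA fewer cells of a type and less RNA per cell cannot be told apart. Nothing in the labels says whether the 3 libraries of a group came from separate experiments, so p-values measure the spread between these libraries, which may be technical.

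Mitochondrial ribosomal protein genes moved in both directions after Tug1 knockdown, and each by less than 2-fold. Of the 75 genes, 73 passed the filter on low counts and 40 of these were called at an adjusted p under 0.05 (edgeR, quasi-likelihood), with 18 higher, 22 lower and 33 not called. The called share was 54.8%, beside 61.7% of all 14216 tested genes. Called higher were 24.7% of the tested members beside 30.8% of all genes, and called lower were 30.1% beside 30.9%. The libraries of the groups did not overlap for 45 members, or 61.6%, beside 65.6% of all tested genes. Log2 fold changes ran from -0.73 to 0.55 with a median of -0.02 and quartiles at -0.27 and 0.23. Their median absolute size was 0.25, beside 0.34 over all tested genes. A call with a log2 fold change of 0.5 or more in absolute size was reached by 11 members, 15.1%, beside 31.0% of all tested genes, and none reached 1. In this fit the shares of called genes were therefore near or below the background of the whole comparison, and the sizes were smaller. An offset for genomic span, the distance from the first to the last base of a gene, is called the length offset here. It does not use transcript length and is given with the spans. With this offset, 28 of 73 members were called higher and 15 lower, with a median of 0.11. Over all 13084 genes tested with the offset, 3967 were called higher and 4161 lower. There the members' share of higher calls was above that of all genes, and their share of lower calls was below it.

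Mrpl28, a conserved large-subunit protein, and Mrpl53, a protein of the stalk, were at 0 counts in every library. A count of 0 allows up to 3 counts, or 0.217 to 0.232 CPM, and covers counting error only. Whether the entries are 0 through the annotation or through the treatment of overlapping genes in counting could not be read from the table, so the limit is one on counted reads and not on the RNA. No fold change is given for them.

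Large-subunit and small-subunit genes were counted apart. Of 44 tested large-subunit genes, 20 (45.5%) were called, 10 higher and 10 lower, with a median log2 fold change of 0.03. Of 29 tested small-subunit genes, 20 (69.0%) were called, 8 higher and 12 lower, with a median of -0.18, beside 0.0043 for all tested genes, of which 61.7% were called. The lower calls made up 41.4% of the small-subunit genes and 22.7% of the large-subunit genes, beside 30.9% of all tested genes. With the length offset the large subunit had 20 higher and 7 lower calls and the small subunit 8 and 8, with medians of 0.15 and -0.05. All 13084 genes of that fit had 3967 higher and 4161 lower calls. Without knockdown replicate 2 the small-subunit median was -0.11. Groups did not overlap for 25 large-subunit genes (56.8%) and 20 small-subunit genes (69.0%), beside 65.6% of all tested genes. These are descriptions of 2 lists, and the difference between the lists was not tested. Symbols do not follow the structure in every case: Mrps18a and Mrps30 are proteins of the large subunit, and Mrps36, listed by RefSeq as Kgd4, is a part of the oxoglutarate dehydrogenase complex. With these genes placed by structure, 22 of 46 large-subunit genes were called, 11 higher and 11 lower, and 17 of 26 small-subunit genes, 7 higher and 10 lower, with a small-subunit median of -0.15.

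**Figure D1:**
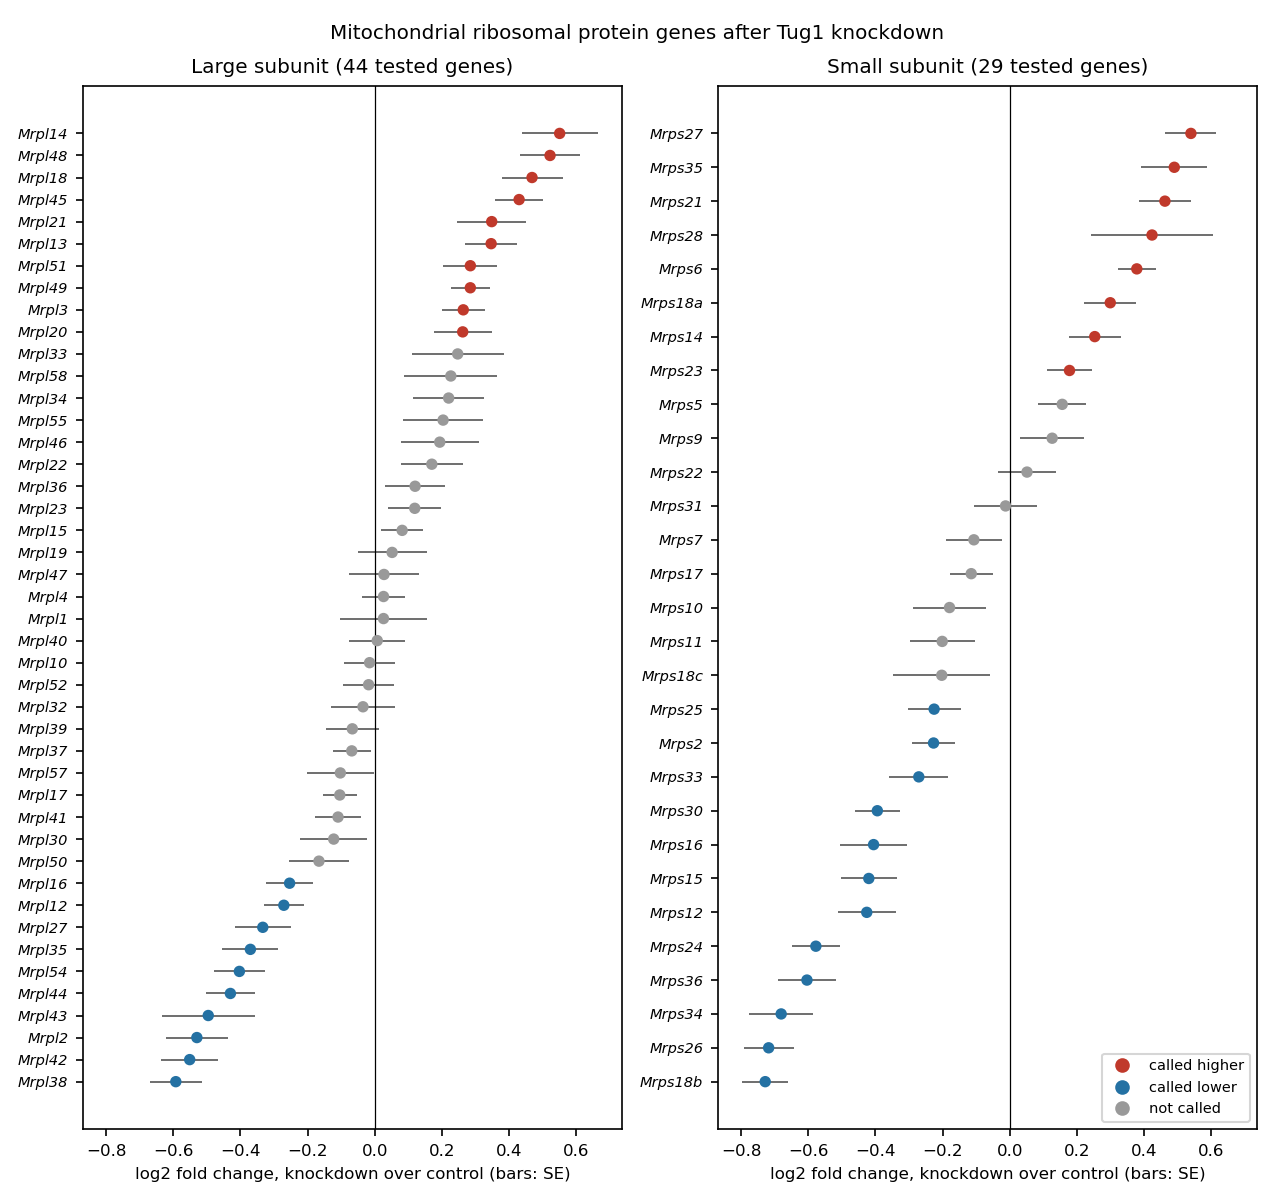
Each point is the log2 fold change (Tug1 gapmer over control gapmer) of a tested mitochondrial ribosomal protein gene, with its SE as a horizontal bar, large-subunit symbols on the left and small-subunit symbols on the right; red and blue points were called higher and lower in edgeR's test. Large-subunit calls split 10 to 10 between 0.55 for Mrpl14 and -0.59 for Mrpl38, and small-subunit calls split 8 to 12 between 0.54 for Mrps27 and -0.73 for Mrps18b.

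The RNA of all members together was described by summing their levels. The sum of all members was 2196.3, 2163.4 and 2161.0 CPM in controls and 2106.5, 2114.4 and 2014.1 CPM after knockdown. Its knockdown mean was 95.6% of the control mean. The large-subunit sum was 1298.9, 1270.7 and 1289.0 CPM in the control libraries and 1284.5, 1297.8 and 1246.6 CPM in the knockdown libraries, or 99.2% of the control mean. The small-subunit sum was 897.4, 892.8 and 872.0 CPM in controls and 822.1, 816.6 and 767.5 CPM after knockdown, or 90.4% of the control mean. The large-subunit sums overlapped between the groups, and the small-subunit sums did not, with the knockdown replicate 3 library lowest for both. The rule leaves out mrpl9, mrpl11 and mrpl24, written in lower case. With them the large-subunit sum was 1373, 1345 and 1364 CPM in controls and 1376, 1386 and 1334 CPM after knockdown. Without Mrps18a, Mrps30 and Mrps36 the small-subunit sum was 792.5, 797.0 and 772.2 CPM in controls and 736.2, 733.6 and 685.4 CPM after knockdown.

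Among the large-subunit genes that fell, Mrpl38 fell furthest. It encodes a protein of the central protuberance, the crown of the large subunit that faces the transfer RNAs. Mrpl38 had 43.5, 37.2 and 37.6 CPM in controls and 25.5, 27.1 and 25.9 CPM after knockdown (log2 fold change -0.59, SE 0.0774, edgeR adjusted p 6.09e-07). The lowest control library lay well above the highest knockdown library. Mrpl42, a protein found only in mitochondrial ribosomes, had 28.1, 27.2 and 27.2 CPM in controls and 20.8, 17.7 and 17.7 CPM after knockdown (log2 fold change -0.55, SE 0.0856, edgeR adjusted p 6.88e-06). Mrpl2, a conserved protein close to the peptidyl transferase centre, had 19.7, 19.9 and 19.4 CPM in controls and 13.6, 14.1 and 13.1 CPM after knockdown (log2 fold change -0.53, SE 0.0921, edgeR adjusted p 2.94e-05). Both genes showed control libraries within 1 CPM of each other and a clear gap to the knockdown libraries. Mrpl43, another mitochondria-specific protein, had 11.6, 10.7 and 11.6 CPM in controls and 9.21, 6.14 and 8.68 CPM after knockdown (log2 fold change -0.50, SE 0.138, edgeR adjusted p 0.00343). Mrpl44, a protein with an RNase III-like fold, had 37.4, 35.1 and 34.6 CPM in controls and 26.3, 27.8 and 25.4 CPM after knockdown (log2 fold change -0.43, SE 0.0739, edgeR adjusted p 2.58e-05). The groups did not overlap for either gene, although the second knockdown library of Mrpl43 stood below the other two. The other 5 lower calls, from -0.40 to -0.25, were Mrpl54, Mrpl35, Mrpl27, Mrpl12 and Mrpl16.

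Mrpl14 had the highest log2 fold change of the large subunit. It encodes a conserved protein on the face that meets the small subunit. Mrpl14 had 11.3, 10.5 and 12.3 CPM in controls and 16.7, 18.7 and 14.4 CPM after knockdown (log2 fold change 0.55, SE 0.113, edgeR adjusted p 0.00021). Its knockdown libraries spread more widely than its controls, but all lay above them. Mrpl48, a mitochondria-specific protein of the central protuberance, had 14.8, 14.9 and 16 CPM in controls and 21.9, 23.0 and 20.8 CPM after knockdown (log2 fold change 0.52, SE 0.0899, edgeR adjusted p 2.65e-05). Mrpl18, a conserved protein of the same crown, had 20.2, 17.6 and 20.8 CPM in controls and 28.1, 24.2 and 28.8 CPM after knockdown (log2 fold change 0.47, SE 0.0909, edgeR adjusted p 0.000109). Neither gene had a knockdown library within the control range. Mrpl45, which binds the inner membrane and lines the exit of the nascent chain, had 34.7, 35.1 and 40.1 CPM in controls and 46.7, 50.5 and 50.9 CPM after knockdown (log2 fold change 0.43, SE 0.0706, edgeR adjusted p 1.46e-05). Mrpl21, a conserved protein, had 15.0, 12.9 and 12.2 CPM in controls and 16.2, 17.9 and 17.0 CPM after knockdown (log2 fold change 0.35, SE 0.103, edgeR adjusted p 0.00551). The gap between the groups was narrow for Mrpl21, between 15.0 CPM in a control library and 16.2 CPM in a knockdown library. The other 5 higher calls, from 0.26 to 0.35, were Mrpl13, Mrpl51, Mrpl49, Mrpl3 and Mrpl20. Mrpl20 lost its call without knockdown replicate 1 (edgeR adjusted p 0.0676).

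Of the small-subunit genes, Mrps18b fell furthest and had the smallest adjusted p of all members. It encodes a mitochondria-specific protein that is related to the bacterial protein S18. Mrps18b had 69.4, 69.9 and 67.4 CPM in controls and 43.0, 45.1 and 36.6 CPM after knockdown (log2 fold change -0.73, SE 0.0685, edgeR adjusted p 3.79e-09). Its knockdown mean was 60.3% of the control mean, with the third knockdown library lowest. Mrps26, a mitochondria-specific protein, had 40.6, 47.0 and 44 CPM in controls and 27.9, 25.6 and 26.4 CPM after knockdown (log2 fold change -0.72, SE 0.0745, edgeR adjusted p 1.86e-08). Mrps34, which helps to keep the small-subunit ribosomal RNA stable, had 46.4, 55.5 and 39.9 CPM in controls and 29.7, 32.1 and 26.6 CPM after knockdown (log2 fold change -0.68, SE 0.0951, edgeR adjusted p 1.63e-06). The control libraries of Mrps34 spread widely, from 39.9 to 55.5 CPM, but the groups stayed apart. Mrps36, the oxoglutarate dehydrogenase component, had 34.8, 28.9 and 31.7 CPM in controls and 22.6, 20.7 and 19.4 CPM after knockdown (log2 fold change -0.60, SE 0.0868, edgeR adjusted p 2.43e-06). Mrps24, a conserved protein near the messenger RNA entry, had 42.1, 43.0 and 39.3 CPM in controls and 28, 29.2 and 26.2 CPM after knockdown (log2 fold change -0.58, SE 0.0725, edgeR adjusted p 3.45e-07). All of these genes had every knockdown library below every control library. The other 7 lower calls, from -0.43 to -0.23, were Mrps12 (a conserved protein of the decoding centre), Mrps15, Mrps16, Mrps30, Mrps33, Mrps2 and Mrps25. Mrps33 lost its call without knockdown replicate 3 (edgeR adjusted p 0.102), and Mrps25 without that library (0.0613) or control replicate 2 (0.0589). Mrps25 also missed the threshold under DESeq2's Wald test (0.0529) and with library totals (0.0638).

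Mrps27, a pentatricopeptide repeat protein that binds RNA, rose most among the small-subunit genes. Mrps27 had 25.4, 24.0 and 23.6 CPM in controls and 36.0, 36.9 and 33.2 CPM after knockdown (log2 fold change 0.54, SE 0.076, edgeR adjusted p 1.81e-06). Mrps35, a mitochondria-specific protein, had 13.6, 13.2 and 14.1 CPM in controls and 18.5, 21.1 and 17.8 CPM after knockdown (log2 fold change 0.49, SE 0.0983, edgeR adjusted p 0.000157). Mrps21, a conserved protein, had 20.6, 20.7 and 19.9 CPM in controls and 28.4, 27.3 and 28.6 CPM after knockdown (log2 fold change 0.46, SE 0.0785, edgeR adjusted p 2.22e-05). The 3 genes had tight control libraries and no overlap. Mrps28 had 3.84, 4.49 and 3.62 CPM in controls and 6.31, 5.25 and 4.46 CPM after knockdown (log2 fold change 0.42, SE 0.182, edgeR adjusted p 0.0473). Its groups overlapped, since the third knockdown library lay below the second control library, and it had the fewest counts of all tested members. Its call was lost with the replicate number as a block (edgeR adjusted p 0.0506) and without control replicate 1 (0.108) or 3 (0.133) or knockdown replicate 1 (0.231) or 2 (0.0661). It was also lost under DESeq2's Wald test (0.119), with limma-voom (0.0573) and without the filter on low counts (0.056), and with the length offset the value was 0.18 (edgeR adjusted p 0.393). Mrps6, a conserved protein with many reads, had 51.0, 50.5 and 49.6 CPM in controls and 64.4, 66.5 and 65.6 CPM after knockdown (log2 fold change 0.38, SE 0.057, edgeR adjusted p 4.57e-06). The other 3 higher calls were Mrps18a at 0.30, Mrps14 at 0.25 and Mrps23 at 0.18. Mrps23 passed at an adjusted p of 0.025 in edgeR and missed the threshold under DESeq2's Wald test (0.0715) and without control replicate 1 (0.0894) or 2 (0.0741) or knockdown replicate 1 (0.094) or 2 (0.0598).

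**Figure D2:**
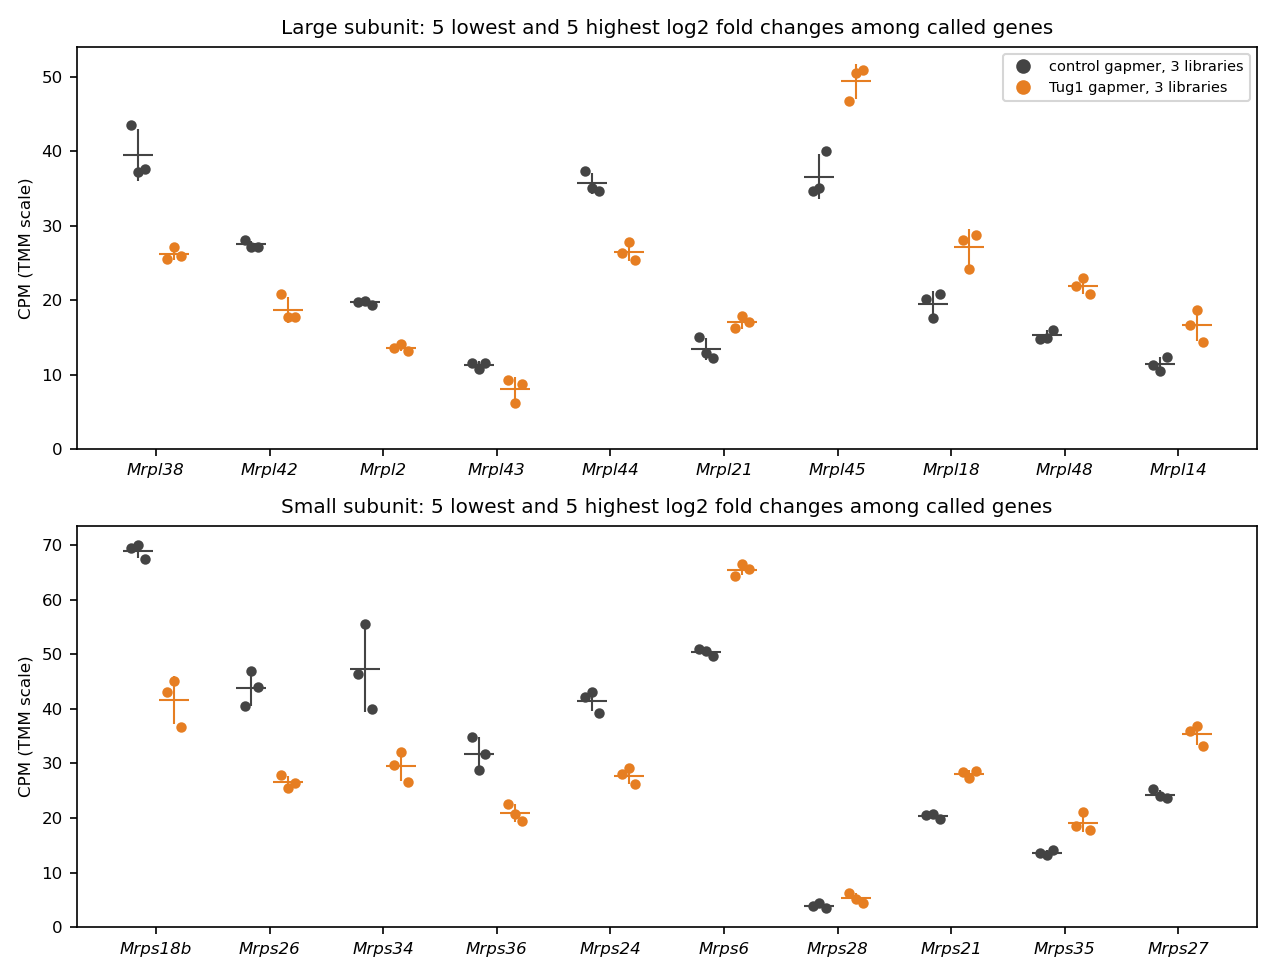
Levels in CPM (TMM scale, axis from 0) of the 5 lowest and 5 highest log2 fold changes among called genes of each subunit, 1 point per library in dark grey for the control gapmer and orange for the Tug1 gapmer, with the mean as a horizontal line and the SD (n = 3) as a vertical line. The groups are apart for all these genes except Mrps28, where 4.46 CPM in a knockdown library lies below 4.49 CPM in a control library.

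Genes for proteins shared with bacterial ribosomes and genes for proteins found only in mitochondrial ones were both called in both directions. Of 29 tested conserved large-subunit genes, 8 were called higher and 5 lower (median log2 fold change 0.12), and of 21 mitochondria-specific large-subunit genes, 5 were higher and 6 lower (median -0.07). In the small subunit, 4 of 16 conserved genes were higher and 5 lower (median -0.15), and 4 of 14 mitochondria-specific genes were higher and 5 lower (median -0.05). In the order given, 44.8%, 52.4%, 56.2% and 64.3% of the tested genes were called, beside 61.7% of all tested genes. Calls and medians of these lists were not taken with the length offset. These lists place Mrps18a and Mrps30 in the large subunit, leave out Mrps36, and include genes of the mitoribosome without an Mrpl or Mrps symbol and 3 genes written in lower case. The lower-case entries mrpl9, mrpl11 and mrpl24 are ribosomal protein genes that the rule, which reads capitals, leaves out. Of these, mrpl11 rose by 0.35 (SE 0.0852, edgeR adjusted p 0.00115) and mrpl24 by 0.29 (SE 0.0838, edgeR adjusted p 0.00429) on the log2 scale, while mrpl9 stood at 0.15 (SE 0.0782, edgeR adjusted p 0.108). With library totals (edgeR adjusted p 0.03), with the length offset (0.26, edgeR adjusted p 0.00662) and without control replicate 3 (edgeR adjusted p 0.0307) mrpl9 was called higher.

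The named parts of the large subunit were mixed too. The stalk recruits the translation factors: Mrpl12, its repeated protein, had 63.9, 61.5 and 61.1 CPM in controls and 50.5, 54.7 and 49.3 CPM after knockdown (log2 fold change -0.27, SE 0.0605, edgeR adjusted p 0.000483). Its anchor Mrpl10 stood at -0.02 (SE 0.0752, edgeR adjusted p 0.871), so the stalk had a call in each direction, with mrpl11 higher. With the length offset Mrpl12 stood at -0.12 and lost its call (edgeR adjusted p 0.0688). Around the exit tunnel, 2 of 6 genes were called, Mrpl45 and mrpl24, both higher. Mrpl22 (0.17), Mrpl23 (0.12), Mrpl47 (0.03) and Mrpl17 (-0.10), also of the exit tunnel, did not pass. With the length offset Mrpl22 (0.23, edgeR adjusted p 0.03) and Mrpl23 (0.22, edgeR adjusted p 0.0144) were called higher. Of 6 central protuberance genes, Mrpl48 and Mrpl18 were called higher and Mrpl38 and Mrpl27 (-0.33, SE 0.0836, edgeR adjusted p 0.00144) lower, with Mrpl46 at 0.19 and Mrpl40 at 0.01 not called. Proteins of this crown thus had RNA changes of opposite sign, and the libraries did not overlap for Mrpl48, Mrpl18, Mrpl38 and Mrpl27. Mrpl46 was called higher with the length offset (0.29, edgeR adjusted p 0.0364). Of all tested genes 61.7% were called, 30.8% higher and 30.9% lower, and the groups did not overlap for 65.6%. With so few genes per part, the counts are a description only.

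The S18 family has 3 mitochondrial members that occupy different sites, with Mrps18a in the large subunit. Mrps18a had 22.2, 22.9 and 23.6 CPM in controls and 27.5, 29.1 and 28 CPM after knockdown (log2 fold change 0.30, SE 0.0773, edgeR adjusted p 0.00184). Mrps18b fell, as given above, and Mrps18c had 11.6, 9.21 and 10.4 CPM in controls and 11.3, 7.62 and 8.16 CPM after knockdown (log2 fold change -0.20, SE 0.144, edgeR adjusted p 0.231). The libraries of Mrps18c overlapped, whereas those of Mrps18a and Mrps18b were apart in opposite directions. The groups did not overlap for 65.6% of all tested genes.

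Of 4 genes in which inherited defects have been linked to cardiomyopathy, Mrpl3 and Mrps14 rose, Mrpl44 fell and Mrps22 did not pass. Over all tested genes 61.7% were called. Mrpl3, a conserved protein that reaches the peptidyl transferase centre, had 38.8, 41.6 and 42.6 CPM in controls and 47.8, 51.1 and 48.6 CPM after knockdown (log2 fold change 0.26, SE 0.0648, edgeR adjusted p 0.00121). Mrps14, a conserved protein, had 25.8, 26.8 and 25.5 CPM in controls and 31.9, 32.5 and 28.7 CPM after knockdown (log2 fold change 0.25, SE 0.0771, edgeR adjusted p 0.00668). Mrps22, a mitochondria-specific protein, had 23.7, 20.7 and 22.1 CPM in controls and 22.5, 24.7 and 21.7 CPM after knockdown (log2 fold change 0.05, SE 0.0862, edgeR adjusted p 0.624), and its groups overlapped.

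The members with the most reads, and so the smallest counting error, included genes of each kind. Mrpl17, an exit tunnel protein, had 118, 118 and 114 CPM in controls and 105, 112 and 108 CPM after knockdown (log2 fold change -0.10, SE 0.0511, edgeR adjusted p 0.0817). Mrpl49 rose (60.1, 58.0 and 55.7 CPM against 70.0, 73.2 and 68.5 CPM; log2 fold change 0.28, SE 0.0578, edgeR adjusted p 0.000181), and Mrpl37 stood at -0.07 (SE 0.0561, edgeR adjusted p 0.298). Mrpl17 and Mrpl37 missed the threshold although their libraries did not overlap. In the small subunit, Mrps2 fell by 0.23 (SE 0.0634, edgeR adjusted p 0.00357) on the log2 scale and Mrps17 stood at -0.11 (SE 0.0635, edgeR adjusted p 0.123). CPM are not scaled to transcript length, so levels are not compared between genes. The 33 members that did not pass had log2 fold changes between -0.20 for Mrps18c and 0.25 for Mrpl33.

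Of 5 ribosomal proteins without an Mrpl or Mrps symbol, Ptcd3, a pentatricopeptide repeat protein at the messenger RNA entry, was called higher, as were 30.8% of all tested genes. It had 55.3, 54.9 and 56.1 CPM in controls and 65.4, 64.4 and 71.9 CPM after knockdown (log2 fold change 0.28, SE 0.0596, edgeR adjusted p 0.000316). The GTP-binding protein Dap3 (-0.03), Chchd1 (-0.15), Aurkaip1 (-0.07) and the large-subunit protein Gadd45gip1 (-0.01) did not pass. With the length offset Gadd45gip1 was called higher (0.18, edgeR adjusted p 0.0101). The ribosomal RNA mt-Rnr1 of the small subunit had a control level of 1450 ± 111 CPM (SD, n = 3) and a knockdown level of 1450 ± 125 CPM (log2 fold change -0.01, SE 0.0561, edgeR adjusted p 0.932). Its large-subunit partner mt-Rnr2 had 2710 ± 220 CPM and 2550 ± 229 CPM (log2 fold change -0.09, SE 0.0574, edgeR adjusted p 0.187), and passed with the replicate number as a block (edgeR adjusted p 0.042). Poly-A selection captures these RNAs only through their short tails, so their levels depend on that step.

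Factors that assemble the mitoribosome were called in both directions, 5 higher and 7 lower of 26 tested, with a median log2 fold change of -0.06. The called share was 46.2%, beside 61.7% of all tested genes (30.8% higher and 30.9% lower). With the length offset 5 were called higher and 4 lower, with a median of -0.02. The lowest among called genes were Mrm1, a methyltransferase of the large ribosomal RNA, at -0.79 (SE 0.0815, edgeR adjusted p 1.63e-08), the GTPase Noa1 at -0.46 (SE 0.0826, edgeR adjusted p 4.09e-05) and the RNA helicase Ddx28 at -0.33 (SE 0.0842, edgeR adjusted p 0.00179). With the length offset described with the spans, Ddx28 stood at -0.12 and lost its call (edgeR adjusted p 0.217). Mrm1 had 34.6, 38.5 and 33.7 CPM in controls and 19.5, 22 and 20.2 CPM after knockdown. The highest among called genes were Eral1, a GTPase that binds the small-subunit ribosomal RNA, at 0.46 (SE 0.09, edgeR adjusted p 0.000128), the methyltransferase Mrm3 at 0.31 (SE 0.101, edgeR adjusted p 0.0114) and the GTPase Gtpbp10 at 0.26 (SE 0.106, edgeR adjusted p 0.0344). Gtpbp10 lost its call under DESeq2's Wald test (adjusted p 0.109) and with any library other than knockdown replicate 3 left out (edgeR adjusted p 0.0515 to 0.0817). Mrm1 and Mrm3 modify the same ribosomal RNA, and their transcripts moved in opposite directions.

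Factors that work with the finished mitoribosome were called in both directions as well, 7 higher and 2 lower of 18 tested, with a median log2 fold change of 0.10. The called share was 50.0% (38.9% higher and 11.1% lower), beside 61.7% of all tested genes (30.8% higher and 30.9% lower). With the length offset 10 were called higher and 3 lower, with a median of 0.195. Metap1d, a mitochondrial methionine aminopeptidase, had 3.14, 2.17 and 2.70 CPM in controls and 6.67, 6.88 and 6.27 CPM after knockdown (log2 fold change 1.30, SE 0.182, edgeR adjusted p 1.65e-06). Mrrf, the ribosome recycling factor, had 19.9, 19.0 and 21.1 CPM in controls and 34.1, 37.4 and 36.9 CPM after knockdown (log2 fold change 0.85, SE 0.0786, edgeR adjusted p 2.69e-09). Both lay beyond the range of the ribosomal proteins themselves, whose highest log2 fold change was 0.55. Taco1, an activator of cytochrome oxidase translation, was called at 0.63 (SE 0.187, edgeR adjusted p 0.00582). The lower calls were the release factor Mtrf1l at -0.45 (SE 0.12, edgeR adjusted p 0.00238) and the initiation factor Mtif3 at -0.32 (SE 0.0903, edgeR adjusted p 0.00398). Of 19 listed factors, Mtrfr had no entry under that symbol.

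The members were set beside the genes of the cytosolic ribosome and of complex I, the largest respiratory complex. Both lists were read from symbols alone. Some entries, such as Ndufa4 and the like-named Rpl7l1 and Rpl31l4, may therefore not be proteins of these complexes. Of 86 tested cytosolic ribosomal protein genes, 73 were called, each lower, at an adjusted p of 0.05 in edgeR, with a median log2 fold change of -0.29. Of 37 complex I genes, 17 were called higher and 2 lower, with a median of 0.14. The members, with 18 higher and 22 lower, had a median of -0.02. With the length offset the cytosolic ribosome had 3 higher and 46 lower calls of 85 tested (median -0.12), complex I 27 calls, each higher (median 0.25), and the members 28 higher and 15 lower (median 0.11). The members' calls went in both directions in either fit, but were near even only without the offset. Calls over all genes were near even in both fits. They were 4383 higher and 4390 lower of 14216 without the offset, and 3967 and 4161 of 13084 with it. The difference between the lists was not tested.

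**Figure D3:**
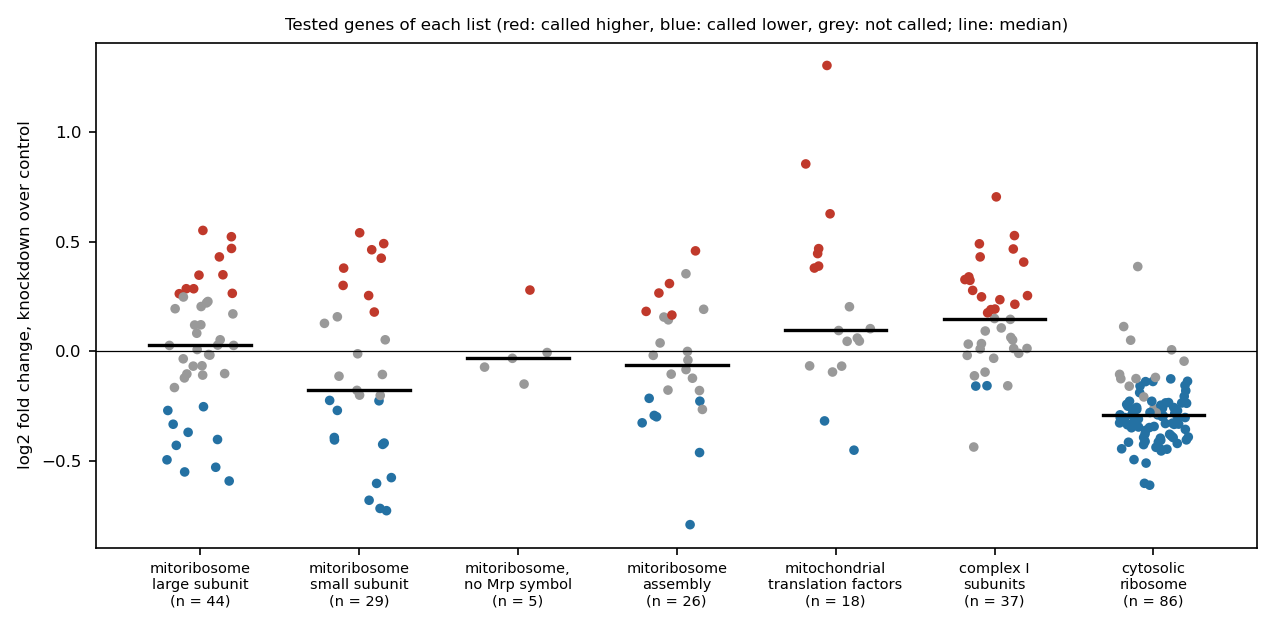
Each point is the log2 fold change (Tug1 gapmer over control gapmer) of a tested gene of a list, red where called higher, blue where called lower and grey where not called, with the list's median as a black line; points are spread sideways only to be seen. The medians are 0.03 for the large subunit and -0.18 for the small subunit, against 0.14 for complex I and -0.29 for the cytosolic ribosome.

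Genomic span, the distance from the first to the last base of a gene, moved with the fold change. Across the 73 tested members, log2 fold change and log2 span had a Pearson r of 0.446 and a Spearman rho of 0.433, and across 13084 tested genes with a span the values were 0.243 and 0.269. These are descriptions across genes, which share libraries and are not independent replicates. Among the 24 shortest members, 736 to 4813 bases, 2 were called higher and 11 lower, with a median log2 fold change of -0.11. Among the 24 of middle span, 4819 to 10378 bases, 5 were higher and 8 lower (median -0.09). Among the 25 longest, 10594 to 130608 bases, 11 were higher and 3 lower (median 0.16). Over all tested genes 30.8% were called higher and 30.9% lower. Calls by span were not counted over all genes, so the split is not shown to be particular to the members. The longest lower call was Mrpl42 with 23778 bases, and the shortest higher call was Mrpl51 with 3663 bases.

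An offset that removed the trend of each library with span moved the split of the calls. With it, 27 large-subunit genes were called, 20 higher and 7 lower (median 0.15), in place of 10 and 10, and 16 small-subunit genes, 8 higher and 8 lower (median -0.05), in place of 8 and 12. Over all 13084 genes tested with the offset, 3967 were called higher and 4161 lower. All 10 higher large-subunit genes kept their call and 10 further genes (Mrpl4, Mrpl15, Mrpl22, Mrpl23, Mrpl33, Mrpl34, Mrpl36, Mrpl46, Mrpl55 and Mrpl58) gained a higher call, while 7 of 10 lower ones kept theirs. In the small subunit 7 of 8 higher and 8 of 12 lower genes kept their call, and 1 gene, Mrps5, was newly called higher. The lower calls of Mrpl12, Mrpl16, Mrpl43, Mrps2, Mrps16, Mrps25 and Mrps33 and the higher call of Mrps28 were lost. Over all 15 alternative fits, 9 higher and 7 lower large-subunit genes and 6 higher and 8 lower small-subunit genes were called in every fit. The lower set was Mrpl2, Mrpl27, Mrpl35, Mrpl38, Mrpl42, Mrpl44 and Mrpl54 with Mrps12, Mrps15, Mrps18b, Mrps24, Mrps26, Mrps30, Mrps34 and Mrps36. The higher set was Mrpl3, Mrpl13, Mrpl14, Mrpl18, Mrpl21, Mrpl45, Mrpl48, Mrpl49 and Mrpl51 with Mrps6, Mrps14, Mrps18a, Mrps21, Mrps27 and Mrps35. What the trend with span rests on was not tested.

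**Figure D4:**
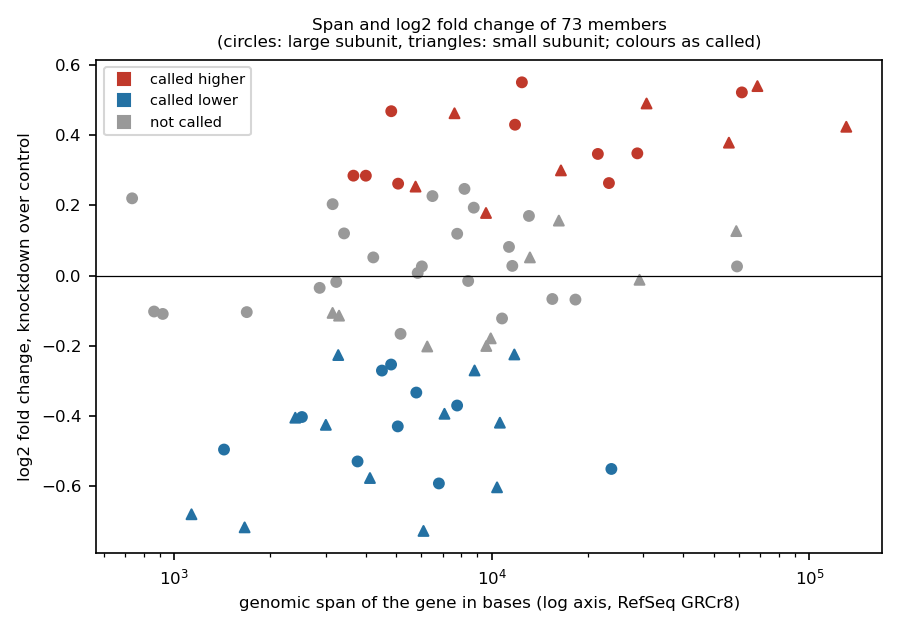
Log2 fold change (Tug1 gapmer over control gapmer) of 73 members against genomic span in bases on a log axis, circles for the large and triangles for the small subunit, coloured by call. Short members hold 11 of the lower calls and long members 11 of the higher calls, with Mrpl42 as a long gene that fell. Calls by span were not counted over all tested genes, of which 30.8% were called higher and 30.9% lower.

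Several members start head to head with another gene, so that a short stretch of DNA lies between a pair of starts on opposite strands. RefSeq's promoter table of the rat assembly GRCr8 held 60 of the 75 members. For 19 of these a gene on the opposite strand started within 1000 bases, and 18 of the 19 neighbours were tested. Ska3 started inside Mrpl57 (upstream distance -106 bases), so the genes of this pair overlap at their start ends. Both genes of a pair were called in 6 cases, in the same direction for Mrps27 with Ptcd2, Mrpl51 with Ncapd2 and Mrps18b with Ppp1r10, and in opposite directions for Mrpl18 with Tcp1, Mrpl49 with Fau and Mrpl2 with Klc4. In 5 pairs the neighbour alone was called, and in 7 neither was, a count that holds Mrpl46 with Mrps11 from either side. Of the 18 tested neighbours 11 were called, beside 61.7% of all tested genes, of which 30.8% were higher and 30.9% lower. Since higher and lower calls were equally common over all genes, the even split among 6 pairs says nothing about shared start regions. With the length offset Fau lost its call, so that pair was no longer called on both sides.

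The stretches between the starts are shown for 5 pairs that span these cases, to let the shared sequence be read beside the values. Each runs 5′ to 3′ on the member's strand in GRCr8, up to the base before its start, and capitals mark the motifs CCGGAAG (ETS), AAGATGGC (YY1), GCGCATGC (NRF1 core), GGGCGG (SP1), CACGTG (E-box) and CCAAT on either strand.
Mrps27–Ptcd2 (chr2:32474114-32474203, plus strand): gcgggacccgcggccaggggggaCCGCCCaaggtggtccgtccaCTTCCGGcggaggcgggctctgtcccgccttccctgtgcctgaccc
Mrpl51–Ncapd2 (chr4:159677939-159677987, plus strand): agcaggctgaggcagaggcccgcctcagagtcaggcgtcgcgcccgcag
Mrpl49–Fau (chr1:212779328-212779512, minus strand): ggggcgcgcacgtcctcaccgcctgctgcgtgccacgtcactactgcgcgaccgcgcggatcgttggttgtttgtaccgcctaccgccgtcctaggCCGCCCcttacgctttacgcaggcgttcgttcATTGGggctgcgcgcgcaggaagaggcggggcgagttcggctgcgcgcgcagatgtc
Mrpl40–Hira (chr11:95637566-95637750, plus strand): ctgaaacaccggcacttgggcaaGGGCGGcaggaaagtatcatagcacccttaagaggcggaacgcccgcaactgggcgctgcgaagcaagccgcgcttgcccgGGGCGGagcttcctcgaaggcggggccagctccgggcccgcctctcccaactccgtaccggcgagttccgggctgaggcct
Mrpl46–Mrps11 (chr1:142117031-142117263, minus strand): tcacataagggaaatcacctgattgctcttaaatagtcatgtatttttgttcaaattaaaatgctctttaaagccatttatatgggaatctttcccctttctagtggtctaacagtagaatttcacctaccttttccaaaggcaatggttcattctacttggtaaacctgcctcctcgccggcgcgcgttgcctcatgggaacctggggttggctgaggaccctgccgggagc

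Ptcd2, whose start lies 91 bases from that of Mrps27, encodes another pentatricopeptide repeat protein of mitochondria. It had 10.0, 8.75 and 8.10 CPM in controls and 12.5, 12.4 and 11.8 CPM after knockdown (log2 fold change 0.45, SE 0.119, edgeR adjusted p 0.00233), beside 0.54 for Mrps27. Ncapd2, a condensin subunit that starts 50 bases from Mrpl51, had 22.2, 20.7 and 23.0 CPM in controls and 30.7, 32.1 and 33.5 CPM after knockdown (log2 fold change 0.55, SE 0.0783, edgeR adjusted p 2.23e-06), beside 0.28 for Mrpl51. Both pairs rose with no overlap between the groups. Fau, which encodes a ubiquitin-like fusion of a cytosolic ribosomal protein, starts 186 bases from Mrpl49. It had 409, 390 and 366 CPM in controls and 331, 324 and 287 CPM after knockdown (log2 fold change -0.30, SE 0.0534, edgeR adjusted p 3.25e-05), beside 0.28 for Mrpl49. The pair was thus apart by 0.59 on the log2 scale, Fau below Mrpl49, and with the length offset Fau stood at -0.09 and lost its call (edgeR adjusted p 0.103).

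Hira, a histone chaperone gene that starts 186 bases from Mrpl40, had 24.9, 23.1 and 22.6 CPM in controls and 46.4, 51.4 and 48.6 CPM after knockdown (log2 fold change 1.05, SE 0.0728, edgeR adjusted p 2.34e-11). Mrpl40 had 20.8, 23.3 and 22.4 CPM in controls and 22.7, 23.0 and 21.1 CPM after knockdown (log2 fold change 0.01, SE 0.0841, edgeR adjusted p 0.947). The neighbour rose beside a member whose libraries overlapped. Pnpla7, a lysophospholipase gene 996 bases from Mrpl41, was at 1.14 (SE 0.0757, edgeR adjusted p 1.32e-11), beside -0.11 (SE 0.0681, edgeR adjusted p 0.168) for Mrpl41. Klc4, a kinesin light chain gene 528 bases from Mrpl2, was at 0.46 (SE 0.0837, edgeR adjusted p 5.54e-05), beside -0.53 for Mrpl2. Tcp1, a subunit of the cytosolic chaperonin 425 bases from Mrpl18, had 230, 228 and 239 CPM in controls and 164, 167 and 165 CPM after knockdown (log2 fold change -0.49, SE 0.0456, edgeR adjusted p 2.99e-09), beside 0.47 for Mrpl18. In these 2 pairs both genes passed the test with opposite signs. Mrpl46 and Mrps11 are both members, a large-subunit and a small-subunit gene whose starts lie 234 bases apart. Mrpl46 stood at 0.19 (SE 0.116, edgeR adjusted p 0.153) and Mrps11 at -0.20 (SE 0.0967, edgeR adjusted p 0.0763), so neither passed. Use of strand in the authors' counting is not given in the sources used here, so reads from stretches where both genes of a pair are transcribed cannot be told apart.

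**Figure D5:**
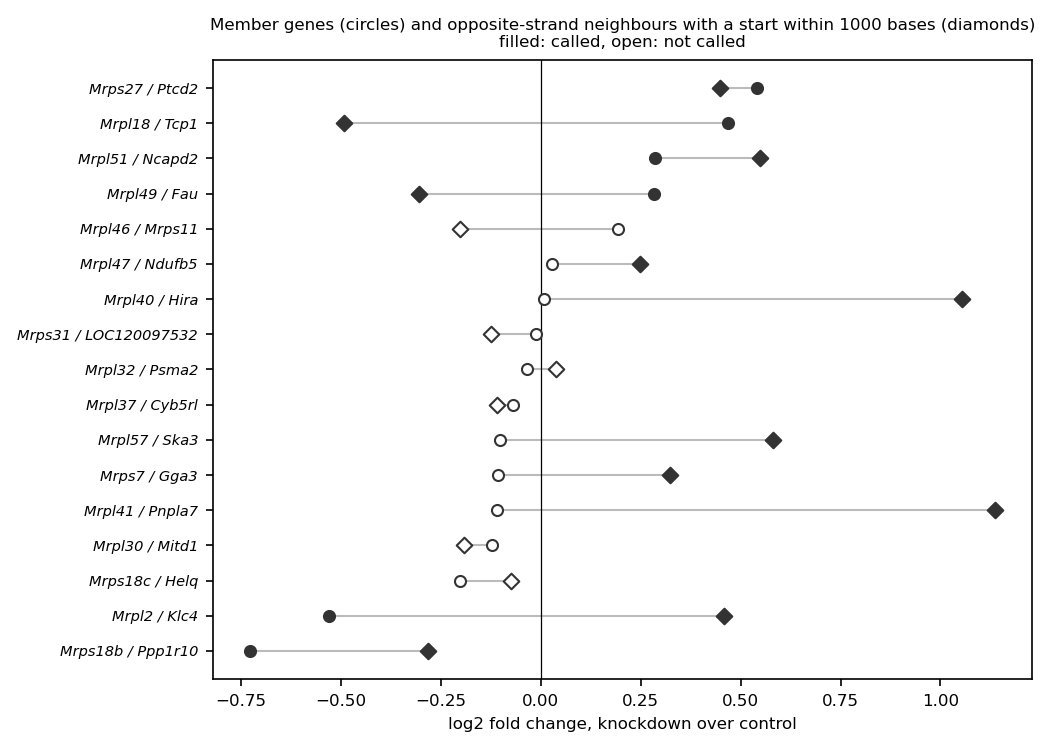
Log2 fold change (Tug1 gapmer over control gapmer) of members (circles) and of the gene on the opposite strand that starts within 1000 bases (diamonds), joined by a line per pair and filled where called. Mrpl40 with Hira and Mrpl41 with Pnpla7 are furthest apart, and Mrpl18 with Tcp1 and Mrpl2 with Klc4 are called on opposite sides of 0.

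Promoter windows of the members, from 250 bases before to 50 after the start, were read for the motifs named above on both strands. An ETS match stood in 21 of 62 member windows (33.9%), beside 16.4% of 12289 windows of tested genes and 8.75% of all 33469 windows. Of 65 windows of cytosolic ribosomal protein genes, 21 (32.3%) held it too. A YY1 match stood in 15 member windows (24.2%), beside 5.13% and 3.17%, and in 9.23% of the cytosolic ribosomal windows. The NRF1 core stood in 5 (8.06%), beside 4.73% and 2.47%. Factors of these families are known to bind at nuclear genes for mitochondrial proteins. SP1 matches stood in 48.4% of member windows beside 57.6% of windows of tested genes, E-boxes in 9.68% beside 8.90%, and CCAAT boxes in 43.5% beside 37.0%. Median GC content was 55.8% in member windows and 60.0% in windows of tested genes.

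The same motifs were counted by direction of change. Of 16 windows of members called higher, 6 held an ETS match, 5 a YY1 match and 0 the NRF1 core or an E-box. Of 14 windows of members called lower, 3 held an ETS match, 3 a YY1 match, 2 the NRF1 core and 2 an E-box. Of 30 windows of members not called, 11 held an ETS match, 7 a YY1 match, 3 the NRF1 core and 4 an E-box. Mrps21 and Mrpl14 each gave 2 of the 16 windows of higher members. With so few windows these counts are a description only, and a match is neither a binding site nor a cause. The 120 bases before the start are shown for both small-subunit genes that fell furthest and for 2 large-subunit genes of the central protuberance that rose, with capitals as before, 5′ to 3′ on the gene's strand in GRCr8.
Mrps18b (chr20:2842886-2843005, plus strand): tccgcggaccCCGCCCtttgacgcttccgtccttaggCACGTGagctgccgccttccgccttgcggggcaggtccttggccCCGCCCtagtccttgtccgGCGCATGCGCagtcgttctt
Mrps26 (chr3:138222204-138222323, plus strand): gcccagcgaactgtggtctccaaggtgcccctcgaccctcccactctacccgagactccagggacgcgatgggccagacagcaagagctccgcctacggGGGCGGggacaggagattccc
Mrpl48 (chr1:164351377-164351496, minus strand): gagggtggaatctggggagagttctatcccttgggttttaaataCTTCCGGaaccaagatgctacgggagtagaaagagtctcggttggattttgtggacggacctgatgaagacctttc
Mrpl18 (chr1:50384832-50384951, plus strand): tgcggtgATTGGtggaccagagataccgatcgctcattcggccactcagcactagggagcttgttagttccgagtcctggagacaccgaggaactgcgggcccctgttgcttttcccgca

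Within these stretches Mrps18b held SP1, E-box and NRF1 core matches, Mrps26 an SP1 match, Mrpl48 an ETS match and Mrpl18 a CCAAT box. Mrps18b at -0.73 and Mrpl48 at 0.52 both held ETS, YY1 and SP1 matches somewhere in their whole windows, so these motifs occurred with either direction of change. The members without an entry in the promoter table were Mrpl13, Mrpl15, Mrpl16, Mrpl19, Mrpl21, Mrpl35, Mrpl38, Mrpl43, Mrps12, Mrps22, Mrps24, Mrps28, Mrps34, Mrps35 and Mrps36.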

How the data were processed

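The deposited table holds raw read counts, whole numbers for 6 libraries without scaling, as the values showed. Per the submitters' processing notes FastQC 0.11.7, fastp 0.14.1 and STAR 2.5 were used. The counting tool, genome build, annotation and use of strand are not given in the sources used here. Per the labels' protocols, poly-A selected RNA (input 500 ng) went into stranded libraries. The table had 0 columns outside the 6 libraries.

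Counts were filtered (edgeR's filterByExpr, minimum count 10, minimum total 15), scaled by TMM (factors 0.979 to 1.02) and tested with edgeR 4.0.16 in R 4.3.3 (quasi-likelihood, two-sided, no block, all 6 libraries), with Benjamini-Hochberg adjustment over 14216 genes. The common biological coefficient of variation was 0.0472. A gene was called at an adjusted p under 0.05. The steps were tested on simulated data. No pair of libraries of a group agreed within sampling noise.

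Alternatives were DESeq2 size factors, library totals, DESeq2's Wald test (1.42.0), limma-voom (3.58.1), other filters and thresholds, the replicate block, an offset for genomic span (lowess span 0.3, 13084 genes with a RefSeq GRCr8 span) and leaving out each library. Same-numbered libraries did not deviate together across genes (correlations -0.00531, 0.0298 and 0.027). A shared step with an effect small beside the differences between libraries would be missed, so a pairing is not excluded.

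The members, lists and alternatives were chosen with earlier results of these data known. Named were Tug1, in each subunit the changed members with the 5 highest and the 5 lowest values, the 3 with the highest mean CPM, members of the structural, S18, cardiomyopathy and other-symbol lists, members at 0, members whose call or direction changed under an alternative, the 3 highest and 3 lowest changed assembly and translation factors, and the head-to-head pairs furthest apart. Further genes, named after their values were seen, are the remaining called members, the lower-case entries, the mitochondrial ribosomal RNAs and the other pairs called on both sides. Sequences come from RefSeq's promoter table (GRCr8). The build of the deposited counts is not given, so no coordinates are tied to those counts.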

Additional observations from a re-analysis of the deposited data

How the results depend on the processing

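Over 17 alternatives, 1101 of 1241 combinations of a tested member and an alternative kept direction and call, 70 lost the call, 31 gained it and 39 changed sign. Requiring also an absolute size of 0.5 on the log2 scale left 4400 genes, 5 large-subunit and 6 small-subunit members, by its own construction. The large-subunit median was 0.0788 with library totals, which moved the median of all genes to 0.0571 and the higher share of calls from 50.0% to 55.8%, and 0.1517 with the length offset (0.1519 with the replicate block). The small-subunit median was -0.0523 with the length offset (-0.0526 with the replicate block) and -0.1884 to -0.1112 with each library left out, the latter without knockdown replicate 2 (-0.1239 without control replicate 1). The large-subunit median was -0.0044 without control replicate 1 and 0.0055 without knockdown replicate 2. The cause was not tested for any of these. The replicate block gave 8848 genes, 20 large-subunit and 19 small-subunit members, and changed no call of a member other than that of Mrps28. Matching symbols in either case, chosen after seeing the data, gave 22 large-subunit members and a median of 0.0274. The comparison lists with the length offset were also chosen after seeing the data.

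Genes that changed sign were all uncalled in the reported fit. With the length offset (and with the replicate block added) the values were Mrpl17 0.1114 (0.1106), Mrpl41 0.1464 (0.147), Mrpl10 0.0821 (0.0819), Mrps7 0.0692 (0.0711), Mrps17 0.0584 (0.0585), Mrpl1 -0.0886 (-0.0888), Mrpl52 0.1562 (0.1558), Mrpl57 0.1611 (0.1618), Mrpl32 0.1467 (0.1476), Chchd1 0.0857 (0.0845), Aurkaip1 0.1383 (0.1379) and Gadd45gip1 0.1836 (0.1848). With library totals they were Mrpl10 0.0374, Mrpl52 0.0344, Mrps31 0.0407, Mrpl32 0.0176, Dap3 0.0201, Gadd45gip1 0.0466 and mt-Rnr1 0.0468, and without the filter Mrpl40 -0.0034. With each library left out the ranges were Mrpl47 -0.0436 to 0.1, Mrpl19 -0.0298 to 0.1285, Mrpl4 -0.0123 to 0.057, Mrps22 -0.0016 to 0.1007, Mrpl10 -0.0435 to 0.0092, Mrpl40 -0.0383 to 0.0473, Mrpl1 -0.0703 to 0.103, Mrpl52 -0.0513 to 0.0261, Mrps31 -0.0329 to 0.0216, Dap3 -0.0671 to 0.0199, Gadd45gip1 -0.0531 to 0.0517 and mt-Rnr1 -0.064 to 0.06. Members gained a call with a library left out (edgeR adjusted p) as follows: Mrpl22 0.0268, Mrpl55 0.0461 and Mrps9 0.0434 without knockdown replicate 3, Mrpl34 0.0462 and Mrps11 0.0143 without control replicate 2, Mrpl58 0.0256 without control replicate 1 and Mrps18c 0.0217 without knockdown replicate 1. Outside the members, mt-Rnr2 gained a call without control replicate 1 (0.0495), without knockdown replicate 2 (0.0278) and without the filter (0.0225), and mrpl9 without control replicate 3 (0.0307). Gadd45gip1 gained a higher call with the length offset (0.0101, and 0.0111 with the replicate block added). At this depth and number of libraries the smallest called difference of a member was 0.18 (Mrps23) and the largest uncalled one 0.25 (Mrpl33) on the log2 scale.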
